A study of Mus musculus with 4 samples.

Results

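Aquaporins are membrane channels that let water, and in some members glycerol, cross lipid bilayers along osmotic or concentration gradients. Aqp1, Aqp4, Aqp5 and Aqp8 are mainly water channels, Aqp3, Aqp7 and Aqp9 are aquaglyceroporins that also pass glycerol, and Aqp11 is a distant relative held mostly inside the cell, in the endoplasmic reticulum. In the mouse blastocyst, Aqp3, Aqp8 and Aqp9 have been localised to the trophectoderm, the outer epithelium across which fluid enters the cavity. The transcripts of these 8 genes were followed in mouse cells on 2-colour arrays: all probes for genes whose name in the array annotation was 1 of the 8 were taken, which gave 8 of 27745 gene names and 13 of 41174 gene probes on the array. The genes had been picked with their ratios and detection in these samples known, so their values are given as a description, with no test.

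The study set 2 kinds of cells against one embryonic stem (ES) cell line on 4 Agilent whole-genome arrays of total RNA. Mouse embryonic fibroblasts (MEFs), harvested after some passages in culture, were labelled red (Cy5) on 2 arrays. Induced pluripotent stem (iPS) cells, 1 clone taken 30 days after its transduction and grown in LIF (leukemia inhibitory factor, 1000 IU/ml), were labelled red on the other 2. ES cells of the line CGR8.8, grown in LIF at that dose, were labelled green (Cy3) each time. Strains and transduced factors are not given in the sources used here. The dyes were never swapped, so dye and group cannot be told apart in a ratio to ES cells. All arrays lie on 1 slide scanned once, and the place on the slide and the group cannot be told apart. The replicates of a group are labelled biological, but separate cultures are not stated, so errors and p-values cover the spread among these samples, which may be technical. The number of arrays limits the precision.

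By the scanner software's own call, 59.2% to 61.5% of gene probes stood well above background in red and 59.9% to 61.5% in green per array. The log2 ratios of replicate arrays correlated across probes at r = 0.989 for MEFs and 0.992 for iPS cells, given as a description. A probe is said to be called when its Benjamini-Hochberg adjusted p over all 24874 tested probes in limma was under 0.05 and it differed at least 2-fold. The labels were checked on marker lists. Of 6 pluripotency genes, 6 were called lower in MEFs than in ES cells, and 4 were called higher and 1 lower in iPS cells. Of 6 fibroblast genes, 6 were called higher in MEFs and 5 lower in iPS cells than in ES cells.

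The probes are 60 bases long. The last 30 bases, at the 3' end, are given for the members whose signal is described at length, with the polyadenylation signal aataaa in capitals where the shown part holds it. The sequences show what each spot could bind.
Aqp3 probe: gtgtaatatgtttctgttataagatagaca
Aqp8 probe: cttcctcagctcccaatctgactttgtaat
Aqp9 probe 1: aggtcttcacatttggaaataacttctggt
Aqp9 probe 2: gactaaagttggaggtagataaagtccctg
Aqp9 probe 3: gatggagtggttcaagttccccttttatgt
Aqp11 probe: gtttttactacctggacttcaaattactgt
Aqp1 probe: tcttatggtaagaaAATAAAggacaatgac
Aqp5 probe: atcttatttattttctggttaagatggggc
The signal lies within the Aqp1 probe, and the 60 bases of the other probes listed hold no copy, against 4.78% of all 41174 gene probes that hold one. On the mm8 build of the array annotation the Aqp3 probe lies at chr4:41281600-41281659 on the reverse strand, the Aqp8 probe at chr7:123259070-123259129 forward and the Aqp11 probe at chr7:97601671-97601730 reverse. The Aqp1 probe lies at chr6:55278064-55278123 forward and the Aqp5 probe at chr15:99422734-99422792 forward. Aqp9 had 3 probes on chromosome 9, reverse strand, of which the first, at chr9:70910926-70921390, spans 10465 bases of genome with 60 bases of sequence and so crosses at least 1 intron. The second lies at chr9:70909926-70909985 and the third at chr9:70931242-70931301. Aqp7 had 2 probes on chromosome 4, which overlap each other and so share sequence. Whether a probe lies in coding sequence or an untranslated region is not given in the sources used here.

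Aqp3, the aquaglyceroporin best known from the basolateral membranes of kidney collecting duct and from skin, differed most among the 8 genes. Its spot gave red signals of 153 and 145 scanner units in MEFs on the 2 MEF arrays, against green signals of 947 and 1040 in ES cells on the same arrays. In iPS cells the red signals were 45600 and 48100, against 952 and 1000 in ES cells. All 8 channel readings were well above background and none was saturated. The ES signal thus stayed within a narrow range on the 4 arrays, while the MEF and iPS signals lay on opposite sides of it without overlap. These are bulk RNAs, so for each gene described here fewer cells of a type and less RNA per cell cannot be told apart.

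After normalization, the log2 ratio of Aqp3 in MEFs over ES cells was -3.23 and -3.13 on the 2 arrays, with a mean of -3.18 ± 0.053 (SE of the fit, n = 2), or 9.08-fold lower in MEFs. In iPS cells over ES cells it was 4.86 and 4.76, with a mean of 4.81 ± 0.053 (SE, n = 2), or 28.0-fold higher in iPS cells. Between iPS cells and MEFs, through the shared ES channel, the log2 ratio was 7.99 ± 0.074, or 255-fold. The order of levels was therefore iPS cells, then ES cells, then MEFs, with each step many times the gap between replicates, which was 0.098 in MEFs and 0.094 in iPS cells. By size, the iPS ratio stood at place 17 from the top of 24874 tested probes, and the difference between iPS cells and MEFs at place 2.

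**Figure D1:**
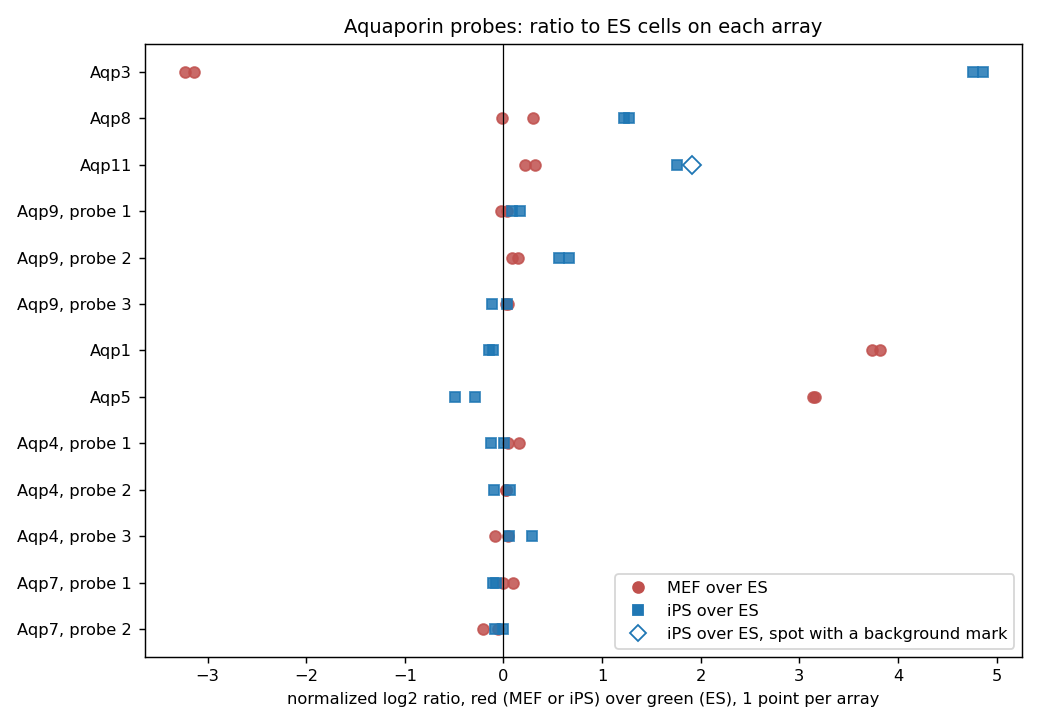
Normalized log2 ratio over ES cells of the 13 aquaporin probes, 1 point per array, with MEFs as circles and iPS cells as squares. Aqp3 lies near -3.2 in MEFs and near 4.8 in iPS cells, Aqp1 and Aqp5 lie above 3 in MEFs only, and the open diamond is the Aqp11 spot with a background mark on iPS replicate 2.

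Aqp8, a water channel that also passes ammonia and is known from intestine, liver and pancreas, was the second aquaporin with more signal in iPS cells. Red signals were 94.5 and 83.5 in MEFs, against 27.8 and 34.5 in green in ES cells, and 213 and 215 in iPS cells, against 36 and 33.9 in ES cells. The local background was 43 to 55 in red and 13 to 18 in green, so the ES spot stood little above it and was well above background on 3 of 4 arrays. The log2 ratio in MEFs was 0.30 and -0.02, 1 on each side of 0. In iPS cells it was 1.28 and 1.22, mean 1.25 ± 0.076 (SE, n = 2), or 2.37-fold higher than in ES cells. Between iPS cells and MEFs it was 1.10 ± 0.108, and the order of levels was iPS cells first, with MEFs and ES cells not apart beyond the 0.316 gap between MEF replicates.

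Aqp11, whose loss in mice gives cystic kidneys, had red signals of 245 and 196 in MEFs and 645 and 761 in iPS cells, against green signals of 104 to 111 in ES cells on the 4 arrays. Its spot on the array of iPS replicate 2 was marked by the scanner software for its local background, though the spot itself carried no mark, so the probe was left out of the fit. The log2 ratio was 0.32 and 0.22 in MEFs and 1.76 on the 1 unmarked iPS array. With spots that carry only a background mark kept, an alternative chosen after seeing the data, the iPS arrays gave 1.76 and 1.91, mean 1.84 ± 0.057 (SE, n = 2), or 3.57-fold higher than in ES cells. The MEF mean was then 0.26 ± 0.057, and the difference between iPS cells and MEFs 1.57 ± 0.080 on the log2 scale. Both iPS readings lay above both MEF readings, which in turn lay above 0.

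Aqp9, an aquaglyceroporin known from hepatocytes, gave signal on 1 of its 3 probes. The second probe had red signals of 51.1 and 54.8 in MEFs, against 16.2 and 16.0 in ES cells, which is at the local background in each channel. In iPS cells it gave 96.0 and 99.8, well above background on both arrays, against 19.1 and 21.1 in ES cells, which was not well above background. The measured log2 ratio in iPS cells was 0.61 ± 0.051 (SE, n = 2), with 0.56 and 0.67 on the arrays. Taken as a bound, the iPS signal was at least 1.49-fold higher than in ES cells. Between iPS cells and MEFs the fitted log2 ratio through the ES channel was 0.50 ± 0.072, or 1.41-fold. MEF and ES readings were not well above background, so that value is not a measured size. Taken as a bound on the red signals alone, iPS cells had at least 1.52-fold more than MEFs. In such a bound the mean normalized log2 signal of the bright RNA is set against that of the dim one, with the dim reading raised on each array to the lowest signal of any probe well above background. The other Aqp9 probes, which lie elsewhere in the message, were not well above background in any RNA, so the probes of this gene disagree on detection.

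**Figure D2:**
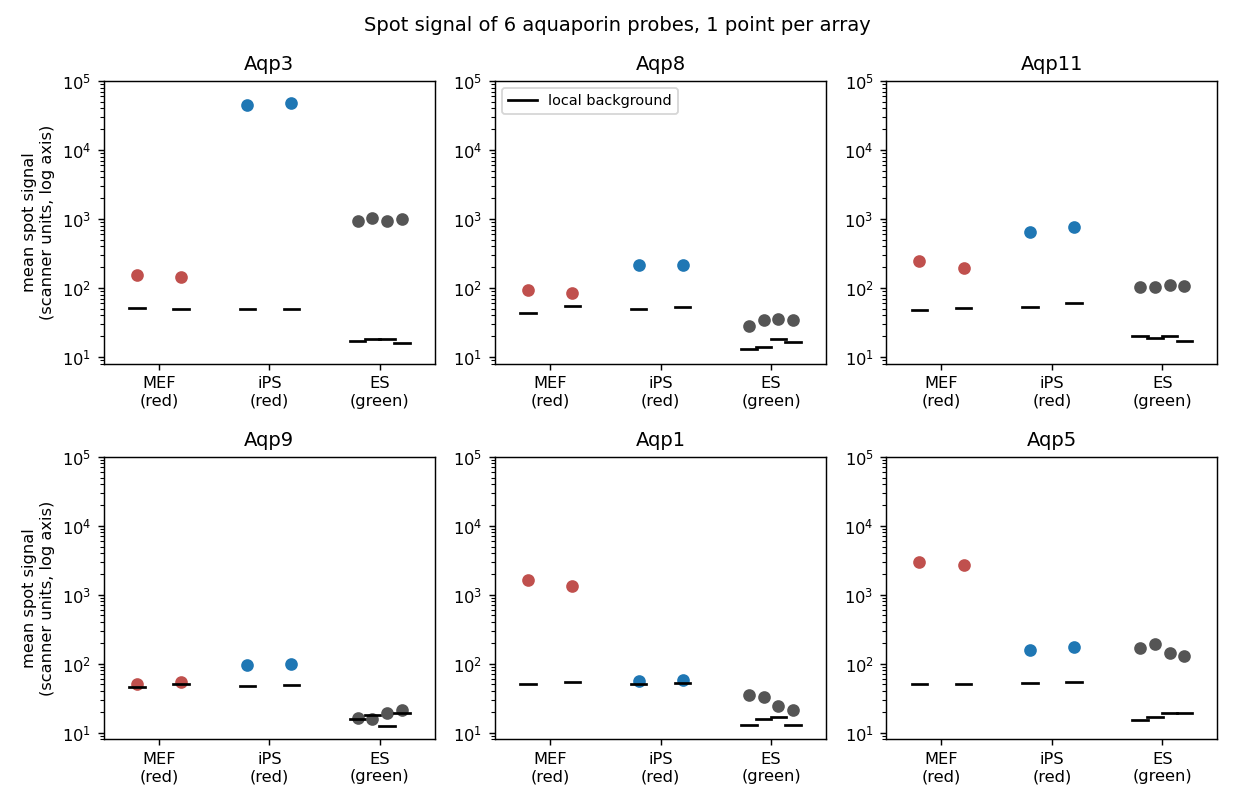
Mean spot signal in scanner units on a log axis for 6 aquaporin probes (for Aqp9 its second probe), 1 point per array, with red readings of MEFs and iPS cells and green readings of ES cells, and the local background as a short line. Signals of different probes are not comparable with each other. The ES readings of Aqp3 lie between 947 and 1040 on the 4 arrays, and its iPS readings reach 45600 and 48100.

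Aqp1, the water channel of red cells, capillary endothelium and the kidney's proximal tubule, was measured in MEFs. Its red signals were 1630 and 1320 in MEFs, against green signals of 35.7 and 33.4 in ES cells, well above background in each of these 4 readings. In iPS cells the red signals were 55.8 and 57.2, beside a local background of 50.5 and 52, against 24.6 and 21.2 in ES cells, and neither RNA was well above background on the iPS arrays. The log2 ratio in MEFs was 3.74 and 3.82, mean 3.78 ± 0.049 (SE, n = 2), or 13.7-fold higher than in ES cells. MEFs thus had the highest level, and iPS cells and ES cells were not ordered. No fold is given for iPS cells: the mean normalized log2 red signal was 5.99 in iPS cells and 10.20 in MEFs.

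Aqp5, the water channel of salivary, lacrimal and sweat glands and of alveolar lining cells, was well above background in all 8 channel readings. Red signals were 2980 and 2740 in MEFs, against 168 and 194 in ES cells, and 156 and 173 in iPS cells, against 144 and 129 in ES cells. The log2 ratio in MEFs was 3.14 and 3.16, mean 3.15 ± 0.060 (SE, n = 2), or 8.86-fold higher than in ES cells. In iPS cells it was -0.49 and -0.29, mean -0.39 ± 0.060, a step that is under 2-fold but larger than the gap of 0.201 between iPS replicates. The difference between iPS cells and MEFs was -3.54 ± 0.085. MEFs had the highest level of Aqp5, apart from both other RNAs.

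Markers of other cell types that express aquaporins were read beside these values. Aqp1 is a gene of endothelium. Of 5 endothelial markers, Emcn was called higher in MEFs (log2 ratio 5.07) and Kdr lower (-1.54), while Pecam1 and Tek were not called. In iPS cells Pecam1 (2.09) and Tek (1.02) were called higher and Kdr lower (-4.10), and Emcn was not called. Cdh5, the cadherin that defines endothelium, was not well above background in any RNA. The summed red signal of the endothelial markers above local background was 4436 to 5023 in MEFs and 747 to 778 in iPS cells. In green it was 1870 to 2049 in ES cells. Such sums, here and for the lists below, were not normalized between the dyes. A red and a green sum can therefore not be compared in size, and each sum follows the brightest genes of its list. Simple epithelium is a cell type in which Aqp3 and Aqp5 are found. Its 5 markers were all called lower in MEFs and in iPS cells than in ES cells. In iPS cells over MEFs, Cdh1 (4.47), Epcam (3.22) and Cldn7 (1.28) were called higher, where 33.1% of all tested probes were called. The other 2, Krt8 and Krt18, were not called. Summed signals of the 5 were 26256 to 30097 in MEFs and 40101 to 40894 in iPS cells, against 284658 to 308426 in ES cells. Of 5 macrophage markers, 2 were called higher in MEFs and 1 lower, with summed signals of 8130 to 10521 in MEFs and 469 to 602 in iPS cells, against 737 to 807 in ES cells. Of 6 markers of primitive endoderm 5 were tested, of which 1 was called higher and 2 lower in MEFs, and 1 higher and 1 lower in iPS cells. The summed signal of this list was 1388 to 1738 in MEFs and 1116 to 1237 in iPS cells, against 856 to 922 in ES cells. The part of these cell types in the aquaporin ratios was not tested.

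Aqp4, the water channel of astrocyte end-feet, had 3 probes on chromosome 18 and was near background. The Aqp4 probe with the most signal had red signals of 73.9 and 64.3 in MEFs, against 27.5 and 34.7 in ES cells, and 87.6 and 85.3 in iPS cells, against 34.6 and 31.3 in ES cells. This probe was well above background in iPS cells on both arrays, in MEFs on neither, and in ES cells on 3 of 4. Its log2 ratio was -0.02 ± 0.069 in MEFs and 0.18 ± 0.069 in iPS cells (SE, n = 2 each), with 0.05 and -0.09 on the MEF arrays and 0.06 and 0.29 on the iPS arrays. Between iPS cells and MEFs it was 0.20, larger than the gap between MEF replicates (0.136) and smaller than that between iPS replicates (0.232). Of 4 astroglial markers 3 were tested, of which 1 was called higher and 1 lower in MEFs and 1 lower in iPS cells, and Gfap was not well above background in any RNA. Their summed signal was 1357 to 1442 in MEFs and 752 to 900 in iPS cells, against 906 to 1002 in ES cells. The other Aqp4 probes, the Aqp7 probes and the other Aqp9 probes, 6 in all, were well above background on no array in either channel. Over these 6 probes the red signal was 51.4 to 59.6 in MEFs and 49.5 to 62.2 in iPS cells, the green signal 13.7 to 24.5 in ES cells, and the log2 ratio -0.21 to 0.17. Aqp7, the glycerol channel of fat cells, was thus not well above background in any of the 3 RNAs. Among 6 adipocyte markers, Fabp4 and Pparg were called higher in MEFs, and Plin1 and Lep were also not well above background. Cidec was called higher in iPS cells (log2 ratio 1.75) and was well above background on fewer than all MEF arrays, and Adipoq was well above background on all arrays of an RNA in iPS cells alone. Their summed signal was 2408 to 3118 in MEFs and 566 to 610 in iPS cells, against 244 to 256 in ES cells.

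Of the 13 probes, 6 (of 6 genes) passed the filter on dim probes and had a value on all arrays, and 7 did not. In MEFs over ES cells, 3 aquaporin probes (Aqp1, Aqp5 and Aqp3) were past the limits of a call, where 25.2% of all 24874 tested probes were called in either direction. In iPS cells over ES cells, 2 (Aqp3 and Aqp8) were past them, where 18.7% of all were called. In iPS cells over MEFs, 4 (Aqp3, Aqp8, Aqp1 and Aqp5) were past them, where 33.1% of all were called. Aqp1 was not well above background in iPS cells, and without MEF replicate 2 the Aqp8 ratio was 0.95, under the 2-fold limit. The probes were chosen on these ratios and passed the filter partly through the RNA in which they were high, so nothing is read from these counts. The median log2 ratio of all tested probes was -0.012 in MEFs and -0.010 in iPS cells over ES cells.

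**Figure D3:**
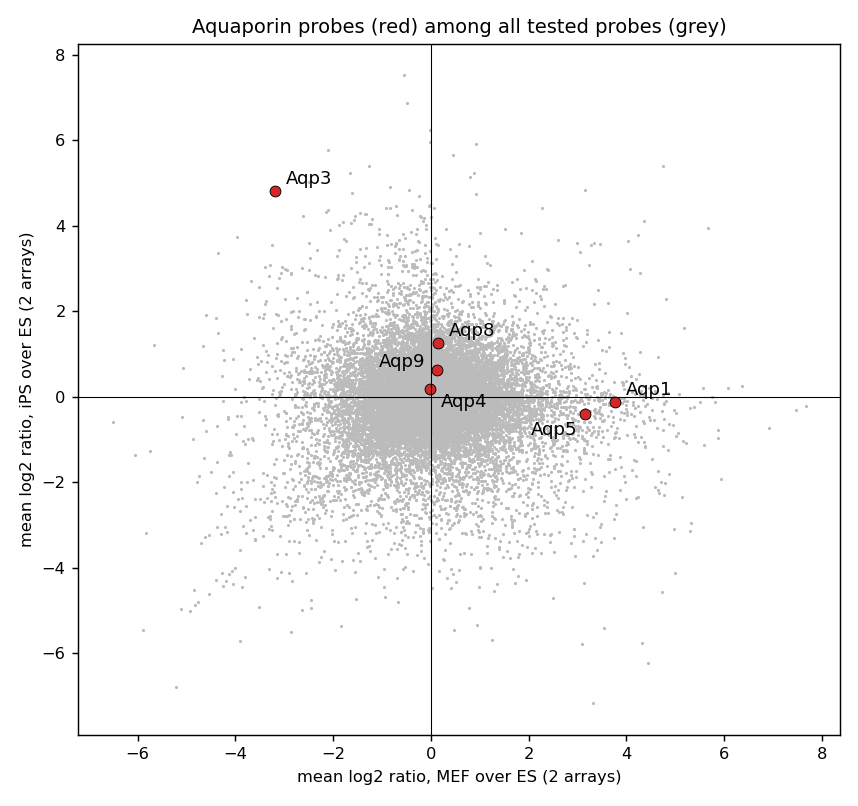
Mean log2 ratio in MEFs over ES cells (horizontal) against that in iPS cells over ES cells (vertical) for 24874 tested probes in grey, with the 6 tested aquaporin probes in red. The axes share the ES RNA. Aqp3 lies far to the upper left, Aqp1 and Aqp5 to the right near 0 on the vertical axis, and Aqp8 above the centre.

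The size of a ratio depends on how a dim spot's background is treated, and the offset of 50 that was added to each signal shrinks ratios of dim probes. From the scanner software's own processed signals, which carry no offset, the Aqp1 ratio in MEFs was 6.05, or 66.1-fold, against 3.78 with the offset. The Aqp8 ratio in iPS cells was 3.01, or 8.04-fold, against 1.25, and in MEFs 1.01 against 0.14. The second Aqp9 probe had 3.64 in iPS cells, or 12.4-fold, against 0.61, with an ES reading that was not well above background. The Aqp4 probe with the most signal had 0.74 on each iPS array, against a mean of 0.18 with the offset. On the MEF arrays that probe had 0.42 and -1.22, with MEF readings not well above background. Between iPS cells and MEFs its ratio was 1.14 against 0.20. For Aqp3, with brighter ES readings, the processed signals gave -3.97 in MEFs and 4.97 in iPS cells, and for Aqp5 3.49 in MEFs. When normexp was fitted over all spots, 14 spots of MEF replicate 1 with a local background above 500 entered the fit, and the MEF ratios became 1.96 for Aqp1, -1.62 for Aqp3 and 1.68 for Aqp5. The directions of these 3 genes in MEFs and of Aqp3, Aqp8 and Aqp9 in iPS cells were kept under each alternative that was run; the MEF ratio of Aqp8 was -0.02 without MEF replicate 1 and -0.01 with marked spots kept or with normexp over all spots.

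**Figure D4:**
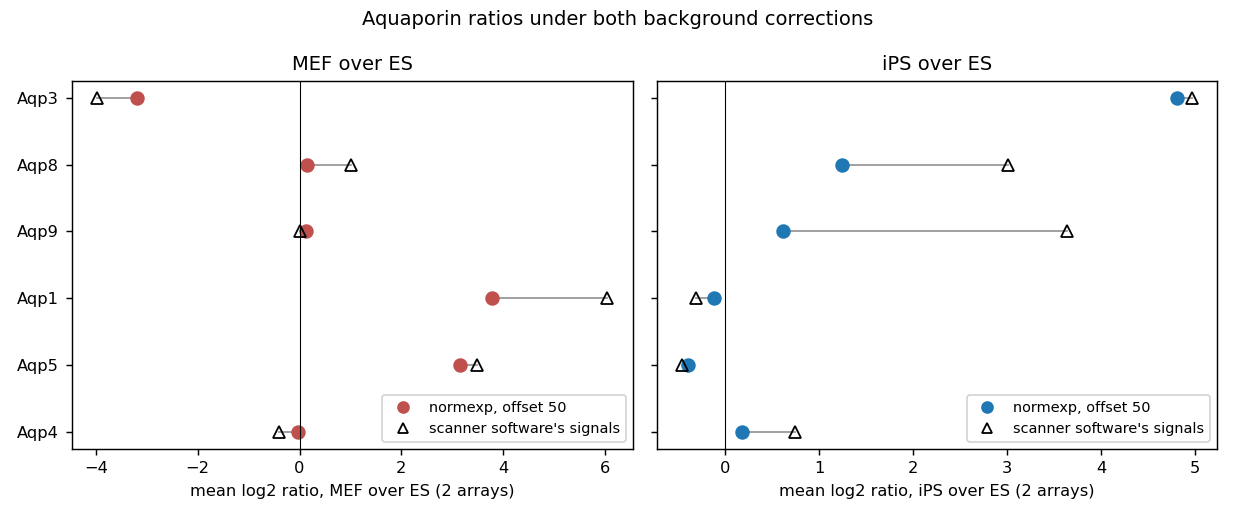
Mean log2 ratio over ES cells (2 arrays) of 6 aquaporin probes in MEFs (left) and iPS cells (right), as filled circles after normexp with an offset of 50 and as open triangles from the scanner software's processed signals. The symbols lie close for Aqp3 in iPS cells (4.81 and 4.97). They lie far apart for Aqp1 in MEFs and for Aqp9 and Aqp8 in iPS cells, genes whose ES readings were dim.

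Of 4 other mouse aquaporin genes with a probe, 2 were tested, and after normexp neither was called in the 3 comparisons. Aqp2, the vasopressin-regulated channel of the collecting duct, was well above background in every channel, with log2 ratios of -0.06 ± 0.047 in MEFs and -0.20 ± 0.047 in iPS cells (SE, n = 2 each). Mip, the lens fibre channel also called aquaporin 0, was well above background in iPS cells alone, with 83.6 and 88.1 in iPS cells and 50.2 and 49.0 in MEFs, against 27.7 and 23.1 in ES cells on the iPS arrays. Its log2 ratio in iPS cells was 0.33 ± 0.046 (SE, n = 2), and neither RNA was well above background on the MEF arrays, so no MEF ratio is read. From the processed signals, without the offset, the Mip ratio in iPS cells was 1.91, or 3.75-fold. Aqp6, a channel of acid vesicles in kidney, and Aqp12, a channel of pancreatic acinar cells, were not well above background in any RNA.

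Some family members lie side by side in the genome, and these neighbours differed in signal. The Aqp2, Aqp5 and Aqp6 probes lie within a short stretch of chromosome 15, with the Aqp2 probe 12.6 kb and the Aqp6 probe 10.2 kb from that of Aqp5 (mm8), and no other gene starts between them in RefSeq (GRCm38.p6). Aqp5 had 8.86-fold more signal in MEFs than in ES cells, while Aqp2 had a ratio near 0 and Aqp6 was not well above background. The Aqp3 probe and the Aqp7 probes on chromosome 4 lie 58.7 kb apart, with 0 protein-coding genes starting between them in RefSeq. Aqp3 had the largest ratios of the 8 genes, and Aqp7 was not well above background in any RNA.

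The 250 bases before the annotated start are shown for Aqp3, Aqp8 and Aqp11, with more signal in iPS cells. They are also shown for Aqp1 and Aqp5, with more in MEFs, so that the sequence of each set can be compared. They are from RefSeq on GRCm38.p6, 5' to 3' on the gene's strand, and end at the base before the start. Capitals mark exact matches on either strand to the GC box, whose letters are GGGCGG. They also mark the TATA box, with the letters TATAAA. The E-box was searched for as well, written CACGTG, and so was the CCAAT box by its 5 letters. The octamer bound by Oct factors, written ATGCAAAT, completed the search, and no matches overlapped.
Aqp3 promoter, chr4:41098184-41098433, reverse strand: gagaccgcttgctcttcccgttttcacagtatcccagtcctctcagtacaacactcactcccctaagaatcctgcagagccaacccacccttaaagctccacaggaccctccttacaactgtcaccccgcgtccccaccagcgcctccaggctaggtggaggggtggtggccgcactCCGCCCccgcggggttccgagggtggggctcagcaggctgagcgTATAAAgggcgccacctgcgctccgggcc
Aqp8 promoter, chr7:123462044-123462293, forward strand: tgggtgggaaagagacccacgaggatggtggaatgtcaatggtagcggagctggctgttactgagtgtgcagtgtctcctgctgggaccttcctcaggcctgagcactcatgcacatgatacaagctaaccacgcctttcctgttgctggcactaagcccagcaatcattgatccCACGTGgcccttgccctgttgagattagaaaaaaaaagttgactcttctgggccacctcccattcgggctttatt
Aqp11 promoter, chr7:97738248-97738497, reverse strand: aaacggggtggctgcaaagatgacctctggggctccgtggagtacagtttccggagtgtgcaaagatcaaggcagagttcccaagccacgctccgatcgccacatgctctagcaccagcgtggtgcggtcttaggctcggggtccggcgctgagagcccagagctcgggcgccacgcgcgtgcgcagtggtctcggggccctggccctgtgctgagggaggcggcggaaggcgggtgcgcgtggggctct
Aqp1 promoter, chr6:55336049-55336298, forward strand: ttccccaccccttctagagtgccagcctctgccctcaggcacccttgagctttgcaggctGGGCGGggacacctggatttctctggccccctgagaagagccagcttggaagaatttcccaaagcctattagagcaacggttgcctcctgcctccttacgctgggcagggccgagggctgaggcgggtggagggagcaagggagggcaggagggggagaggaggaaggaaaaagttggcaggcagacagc
Aqp5 promoter, chr15:99590778-99591027, forward strand: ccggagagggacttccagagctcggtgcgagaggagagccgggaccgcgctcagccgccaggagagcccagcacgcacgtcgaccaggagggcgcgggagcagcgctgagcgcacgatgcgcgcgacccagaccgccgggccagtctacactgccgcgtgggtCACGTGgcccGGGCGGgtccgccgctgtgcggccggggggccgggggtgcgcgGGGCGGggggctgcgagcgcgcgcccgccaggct
The Aqp3 window holds 1 GC box and a TATA box that begins 29 bases before the start. Aqp1 holds 1 GC box, Aqp5 2 GC boxes and 1 E-box, Aqp8 1 E-box, and Aqp11 none of the motifs. Of 32851 RefSeq promoters cut to the same 250 bases, 32.7% hold the GC box, 12.4% the TATA box, 6.02% the E-box, 1.60% the octamer and 33.8% the CCAAT box. The windows held 14 CpG in Aqp3, 5 in Aqp8 and 23 in Aqp11, and 5 in Aqp1 and 38 in Aqp5, with a median of 6 over all promoters. No motif searched was held by all 3 of the shown genes with more signal in iPS cells. The GC box was held by both genes with more in MEFs and also by Aqp3. Aqp9, whose probes disagreed on detection, is not shown, and its windows held none of the motifs. A match is only a match of letters.

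Genes with the pattern most like that of the 3 aquaporins with the largest ratios were found by the Euclidean distance between their log2 ratios on the 4 arrays, among genes named in RefSeq. For Aqp3 these were Stra8 (distance 1.06), Zscan4c (1.18) and Fbxo15 (1.80). Stra8 had -2.53 and -2.44 in MEFs and 4.91 and 5.14 in iPS cells. For Aqp1 they were Gtf2ird1 (0.158), C1qtnf2 (0.168) and Pdgfd (0.172). For Aqp5 they were Bicc1 (0.0648), Olfml3 (0.201) and Dnajb4 (0.221), of which Bicc1 had 3.15 on both MEF arrays and -0.43 and -0.28 on the iPS arrays. All 4 points of each distance share the ES RNA in green, and the nearest genes of Aqp3 lay farther off than those of Aqp1 and Aqp5.

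Genes that work with aquaporins were read from lists written with earlier results of these data known. Of 12 genes of glycerol and lipid droplet handling, 10 were tested. Mgll, which releases glycerol from monoglycerides, was called higher in MEFs (log2 ratio 2.78 ± 0.058, SE, limma adjusted p = 1.58e-08), where 25.2% of all tested probes were called, and the other 9 were not called. The 3 tested Mgll probes had 0.35 to 2.78 in MEFs, so 1 of them was under 2-fold. In iPS cells Gpd1, the cytosolic glycerol-3-phosphate dehydrogenase, was called higher (1.33 ± 0.055, limma adjusted p = 5.36e-07) and 9 were not called, where 18.7% of all tested probes were. The median log2 ratio of the 10 was 0.48 in MEFs and 0.29 in iPS cells.

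Of 8 genes of the osmotic stress response, 3 were called higher and 1 lower in MEFs, with a median log2 ratio of 0.49, where 25.2% of all tested probes were called. Hspa4l, a chaperone of the Hsp110 family induced by osmotic stress, had 1.97 ± 0.047 and Slc5a3, the myo-inositol importer, 1.18 ± 0.063, while Sgk1, a kinase that regulates ion transport, had -1.28 ± 0.049 (SE; limma adjusted p between 2.87e-08 and 1.53e-06). In iPS cells the median was -0.30, with 2 genes called lower and the other 6 without a call, where 18.7% of all tested probes were called. Lower were Nfat5, the transcription factor of the osmotic response, at -1.42 ± 0.055 (limma adjusted p = 3.62e-07), and Slc38a2, a neutral amino acid transporter, at -1.53 ± 0.057 (limma adjusted p = 3.04e-07). These are the brightest probes: the 5 tested Nfat5 probes had -1.42 to 0.09 in iPS cells, of which 1 was called, the 4 of Slc38a2 -1.53 to -0.53, and the 4 of Hspa4l 0.38 to 1.97 in MEFs. Slc5a3 was well above background on all arrays of an RNA in MEFs alone. In iPS cells over MEFs, 1 of the 8 was called higher and 5 lower, with a median of -1.16, where 33.1% of all tested probes were called.

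Of 20 genes of cell volume control and ion transport, 4 were called higher and 1 lower in MEFs, and in iPS cells 3 were called higher and 17 were not called. These shares lie near those of all tested probes, of which 25.2% were called in MEFs and 18.7% in iPS cells. The median log2 ratio was 0.31 in MEFs and -0.06 in iPS cells. Trpv4, a cation channel opened by cell swelling, was called higher in MEFs (1.79 ± 0.056, limma adjusted p = 9.65e-08) and in iPS cells (1.63 ± 0.056, limma adjusted p = 2.08e-07). Stk39, the kinase that activates sodium-potassium-chloride cotransport, was called higher in MEFs (1.58 ± 0.048) and Clcn3, a chloride-proton exchanger, lower (-1.77 ± 0.052). In iPS cells Slc12a7, a potassium-chloride cotransporter, had 1.41 ± 0.056 and Atp1b1, a subunit of the sodium pump, 1.12 ± 0.047. Atp1b1 was called higher in MEFs too (1.07 ± 0.047). The 5 subunits of the Lrrc8 volume-regulated anion channel were not called in either RNA.

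Of 13 genes of the dystrophin-associated complex that anchors Aqp4, 2 were called higher and 1 lower in MEFs, and 2 higher and 3 lower in iPS cells, with medians of -0.16 and 0.06. Of all tested probes 25.2% were called in MEFs and 18.7% in iPS cells, and the MEF share of the list is near the first of these. The sarcoglycans Sgcb and Sgcd were called higher in MEFs at 1.78 ± 0.046 and 1.67 ± 0.052, and agrin, Agrn, which binds dystroglycan, lower at -1.61 ± 0.053. In iPS cells the epsilon sarcoglycan Sgce (-2.57 ± 0.048), the dystrobrevin Dtna (-2.28 ± 0.057) and utrophin, Utrn (-2.07 ± 0.054), were called lower. Other probes of some of these genes had smaller ratios, with ranges of 1.00 to 1.78 for Sgcb and -1.61 to -0.28 for Agrn in MEFs, and of -2.28 to -0.79 for Dtna and -2.16 to -0.48 for Utrn in iPS cells. Sgcd was well above background on all arrays of an RNA in MEFs alone. Aqp4 itself, as described, was near background. With normexp fitted over all spots no probe was called in MEFs over ES cells (2392 had an unadjusted p under 0.05 in limma), so that each MEF call of these lists was lost there, as were the iPS calls of Trpv4 and Atp1b1, while no direction of a called gene changed.

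**Figure D5:**
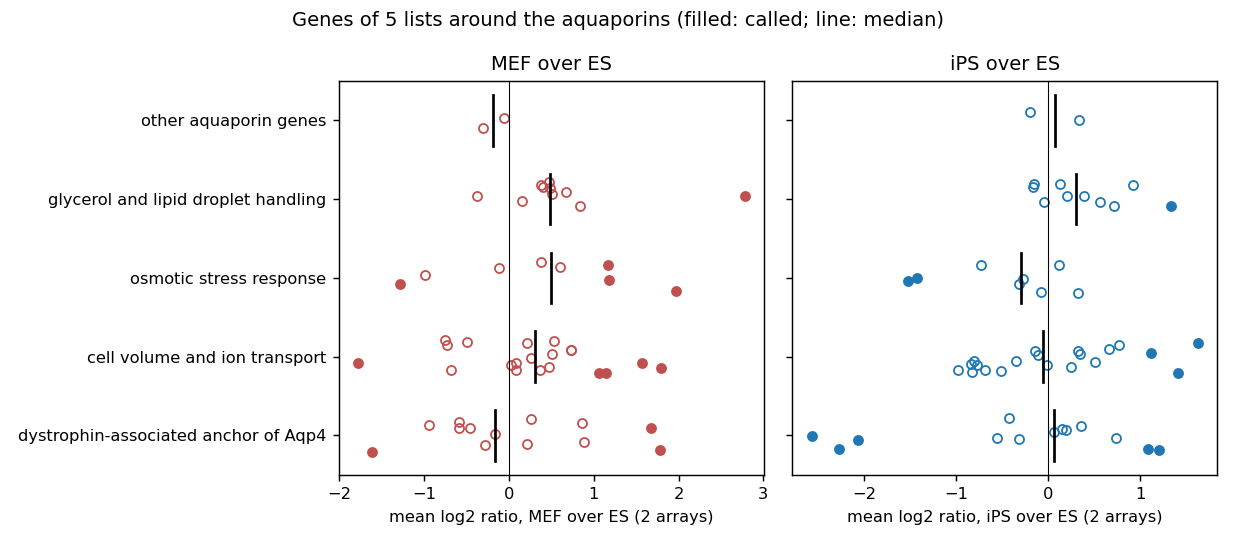
Mean log2 ratio in MEFs over ES cells (left) and iPS cells over ES cells (right) for each tested gene of 5 lists, 1 point per gene by its brightest tested probe, filled where called, with the median of the list as a line. Points of each list lie on both sides of 0 in each panel, except the other aquaporin genes in MEFs, which lie below 0. The median of the osmotic stress list is 0.49 in MEFs and -0.30 in iPS cells.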

How the data were processed

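The authors read the arrays with the scanner program Agilent Feature Extraction (10.5.1.1, scan at 5 micron), per the file headers, after labelling 1 µg of RNA a sample, per the labels. For each spot the deposited files hold the mean intensity and the median intensity of the local background in each channel, without normalization. The software's processed signals and a log10 ratio, red over green, made from them with LOWESS (smoothing factor 0.25, per the file headers), were deposited too. That log10 ratio equals the series' deposited values at 45018 features on every array (the largest difference is 0, and each column's median is 0). Scale, centring and direction of these values are therefore known.

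Spots with an outlier mark were left out before normexp (offset 50) and loess within arrays (span 0.3, control spots at weight 0). Both steps were run in limma 3.58.1 (R 4.3.3, reading with the package data.table, version 1.17.8). Control spots stayed in the normexp fit and were dropped before probes were averaged. Normexp is usually fitted over all spots; the order used here was chosen with the counts under both orders known. Spots of a probe were averaged. Tested were 24874 of 41174 gene probes: those well above background in at least 1 RNA on all its arrays, with a value on all 4 arrays. lmFit and eBayes gave 1 coefficient per group (residual df 2, prior df 4.91), with 2 replicates per group. The fit was tested on simulated data for MEFs over ES cells with 24874 probes. It recovered 97% of probes changed by 1.5 and 100% of those changed by 3 on the log2 scale, and called 0% of unchanged ones. The mean error of unchanged probes was 0.046 on that scale, far under the 2-fold limit, so the last share tests little. A gene of a list was represented by its tested probe with the highest mean intensity. Of the tested probes, 17576 were named through RefSeq.

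The members and all lists were chosen with earlier results of these data known. Named are the 8 members, the other aquaporins, the 3 genes with the largest called ratio per list and comparison, and the 3 genes nearest to each of the 3 members with the largest root mean square ratio. Marker genes are named beside their counts, and 1 marker list is not reported here. Alternatives changed the order of normexp, marked spots, background correction, normalization, filter, probe choice, replicates and a replicate block. The groups share replicate numbers, which the labels do not tie to a shared culture or day.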

Additional observations from a re-analysis of the deposited data

Results flagged for a closer look

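For 3 aquaporin probes the ratio to ES cells had opposite signs in MEFs and iPS cells on every array. The difference itself was not tested, since the probes were chosen with these ratios known. For Aqp3 the log2 ratio of iPS cells minus MEFs was 7.99, with both iPS arrays above 0 and both MEF arrays below it. For Aqp1 the fitted value was -3.90, but neither RNA was well above background on the iPS arrays, so the sign of its iPS ratio carries no order and the value is not a measured size. For Aqp5 it was -3.54, with an iPS ratio of -0.39 that is under 2-fold.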

How the results depend on the processing

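In MEFs over ES cells 6269 probes were called. The count was 0 with normexp over all spots (2392 at unadjusted p under 0.05 in limma), 200 with marked spots kept and 10354 from the scanner software's processed signals. With normexp over all spots, spots of MEF replicate 1 with a local background up to 694663 enter the fit. In iPS cells over ES cells 4652 were called, 3292 with normexp over all spots, 3702 with marked spots kept and 8405 from the processed signals. In iPS cells over MEFs 8234 were called, 2644 with normexp over all spots, 3086 with marked spots kept and 12486 from the processed signals. The cause of the rise under the processed signals was not tested. Leaving out a replicate gave 6360 to 6559, 4703 to 4812 and 8380 to 8492 calls in the 3 comparisons. Median centring in place of loess moved the median of all probes to 0.16 in MEFs and 0.14 in iPS cells, and the share of higher calls to 70.0% from 50.6% and to 61.5% from 42.8%.

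The replicate 1 minus replicate 2 differences of MEFs and iPS cells correlated at -0.110 across probes. The replicate block gave 6269, 4652 and 8235 calls, and the crossed pairing, chosen after seeing the data, also 6269, 4652 and 8235. Of single-gene values under the alternatives, none reversed a call, 26 kept the direction and lost it, 103 moved and 769 did neither. For the aquaporin probes only the size of the ratio entered these counts, not a call. With normexp over all spots 0 probes were called in MEFs over ES cells, so Aqp1, Aqp3 and Aqp5 were not past the limits there. Dim spots limit Aqp8, Aqp9 and Aqp4, whose ES signal was not well above background on every array, and Aqp1 outside MEFs.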
